A study of Mus musculus with 12 samples.

Results

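The Ifitm family comprised 5 of the 19938 genes tested, Ifitm1, Ifitm2, Ifitm3, Ifitm5 and Ifitm6. They were the family members that lie side by side on mouse chromosome 7, and their values came from 8 of 35556 probe sets that the platform annotation pairs with an Ifitm symbol alone. Where a gene had several such probe sets, the brightest over the 12 arrays stood for it. Transcripts were measured on Affymetrix arrays in KY-1 and KY-2, mouse natural killer (NK) cell lines that both lack p53. The culture medium of all cells held human IL-15 at 200 U/mL, and cells were transduced with a GFP vector or with GFP-P2A-FLAG-Myb, which makes GFP and FLAG-tagged Myb from 1 transcript, and GFP-positive cells were sorted. KY-1 was measured on 3 arrays with the GFP vector and 4 with the Myb vector, and KY-2 on 2 and 3 arrays. Each line is a single line, so a difference between KY-1 and KY-2 is a difference between 2 cell lines, and the GFP cells carry no Myb vector but share the p53 loss and the IL-15 with the Myb cells.

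IFITM proteins are small membrane proteins that interferons induce. They alter the membranes they sit in and so hinder enveloped viruses from fusing with the cell, IFITM1 mainly at the plasma membrane and IFITM2 and IFITM3 mainly in endosomes. Ifitm5 belongs to the same gene cluster but is known from bone-forming osteoblasts. Myb is a transcription factor of blood progenitors. The study addressed how raised Myb acts in NK cells, and Ifitm1 was among the genes with the greatest rise, so the question here was whether its neighbours on the chromosome rose with it.

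Values are log2 expression summaries, and array medians lay between 5.31 and 5.42. Myb itself lay between 9.54 and 9.80 on the 7 Myb arrays, against means of 7.99 ± 0.07 (SD, n = 2) with GFP in KY-1 and 5.05 ± 0.07 (SD, n = 2) in KY-2, which matches the labels. Of 16 NK cell markers 14 stood above a log2 level of 8 in KY-1 with GFP and 12 in KY-2 with GFP. Among markers of T cells, B cells, myeloid cells, mast cells and basophils, and erythroid cells and megakaryocytes, those above 8 with GFP were Kit in both lines and Cd28, Cd3g and Cd8a in KY-2. In KY-1, GFP arrays 1 and 2 and Myb arrays 3 and 4 differed far less than other arrays of a group (robust SD of the log2 differences 0.0433 to 0.0469, against 0.1016 to 0.1719), so each pair was averaged and counted as 1 replicate. Each line thus had 2 replicates with GFP and 3 with Myb. No label gives separate cultures for the replicates, and the p-values cover the scatter of these samples alone, which could be technical.

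Ifitm1 rose with the Myb vector in both lines, and more in KY-2. In KY-1 its log2 level was 8.02, 8.08 and 7.89 on the GFP arrays and 9.51, 9.40, 9.60 and 9.49 on the Myb arrays. In KY-2 it was 9.83 and 9.82 with GFP and 12.83, 12.78 and 12.77 with Myb. All Myb arrays lay above all GFP arrays of the same line, and KY-2 with GFP already lay above KY-1 with Myb. The group means were 7.97 ± 0.11 (SD, n = 2) and 9.48 ± 0.08 (SD, n = 3) in KY-1, and 9.83 ± 0.01 (SD, n = 2) and 12.79 ± 0.03 (SD, n = 3) in KY-2. The log2 differences were 1.52 ± 0.08 (SE) in KY-1, a 2.86-fold rise, and 2.97 ± 0.08 (SE) in KY-2, a 7.83-fold rise. Averaged over the lines, Ifitm1 ranked 2 of 19938 genes from the highest change, after Myb. Because the family was chosen with this rise known, it is given as a description, without a test.

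Cell type markers also moved with the Myb vector. Of the 16 NK markers 1 was called higher and 3 lower in KY-1, and 0 higher and 5 lower in KY-2, where 1.22% and 2.83% of all genes were called in either direction. Averaged over the markers, the KY-1 arrays lay between 9.74 and 9.80 with GFP and between 9.54 and 9.61 with Myb, and the KY-2 arrays between 9.76 and 9.88 and between 9.52 and 9.59. Fcgr3, an Fc receptor of NK cells, was lower in both lines (-0.59 ± 0.08 and -0.79 ± 0.08 log2, SE). Ncr1, the activating receptor NKp46, was lower in KY-1 (-1.96 ± 0.17, limma adjusted p = 0.000227). In KY-2, where Ncr1 stood at 5.43 with GFP, it was not called. The Myb effect on Ncr1 differed between the lines by 1.86 ± 0.24 (limma adjusted p = 0.00365). The NK marker called higher in KY-1 was Gzma (0.54 ± 0.08, limma adjusted p = 0.00742). Of 8 mast cell and basophil markers the protease genes Mcpt8 (1.76 ± 0.17) and Cpa3 (1.10 ± 0.21) were called higher in KY-1 (limma adjusted p = 0.000508 and 0.0331), and 0 were called in KY-2, where 2 had an unadjusted p under 0.05. Of 10 T cell markers Cd3g was called higher in KY-1 (2.52 ± 0.21, limma adjusted p = 0.000167), and in KY-2 Trat1 was called higher and Cd3d and Cd8a lower. No B cell, myeloid, or erythroid and megakaryocyte marker was called by limma in either line, and 1, 1 and 0 of them in KY-1 and 0, 3 and 1 in KY-2 had an unadjusted p under 0.05. The part of these shifts in the Ifitm values was not tested.

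The size of the rise differed between the lines. It was larger in KY-2 by 1.45 ± 0.12 log2 (SE, limma adjusted p = 9.2e-05; 95% interval 1.19 to 1.71). Ifitm1 was picked for its rise in these same values, so this p-value is a description and not a separate test. Of the 5 members 1, Ifitm1 itself, was called higher for this difference and 0 lower. Of all genes 0.461% and 0.381% were, or 0.843% in either direction. The second Ifitm1 probe set gave 1.39 in KY-1 and 2.90 in KY-2. The rise in Myb itself was also larger in KY-2, by 3.11 ± 0.11 log2, from a lower start. With GFP, KY-2 had less Myb than KY-1 (5.05 against 7.99) and more Ifitm1 (9.83 against 7.97).

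Ifitm2, the neighbour of Ifitm1 that makes an endosomal IFITM protein, also rose in KY-2. There its log2 level was 9.22 and 8.94 with GFP and 9.90 to 10.03 on the 3 Myb arrays (mean 9.97 ± 0.07, SD), so the arrays of the vectors did not overlap. The difference was 0.90 ± 0.10 (SE, limma adjusted p = 0.000412), a 1.86-fold rise. In KY-1 the level was 11.79, 11.78 and 11.88 with GFP and 12.22, 12.26, 12.15 and 12.11 with Myb. Those arrays did not overlap either, but the difference of 0.37 ± 0.10 (SE, interval 0.16 to 0.59) did not pass after adjustment over all genes (limma adjusted p = 0.127). Averaged over the lines, Ifitm2 rose by 0.63 ± 0.07 log2 (SE, limma adjusted p = 0.000378), with rank 64 from the highest of 19938 genes.

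The call of Ifitm2 in KY-1 depended on the fit. It passed with the 12 arrays taken as separate replicates (adjusted p = 0.0152), with only the brighter genes tested, those with a mean above 6 in a group (0.0345), and with a trended prior variance (0.00591). Over all alternatives its difference lay between 0.29 and 0.42, with an adjusted p of at most 0.454. The effect in KY-2 exceeded that in KY-1 by 0.53 ± 0.14 log2 (SE, limma adjusted p = 0.141), which was not called. That difference was called with 12 separate arrays (0.0356), among brighter genes (0.0405), with the mean of the probe sets (0.0445) and with a trended prior variance (0.00753). In KY-2 and averaged over the lines, Ifitm2 was called under each alternative run.

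The other 2 of the 3 Ifitm2 probe sets were also higher with Myb. In KY-2 they gave 0.85 ± 0.09 and 0.88 ± 0.10 log2 (SE), with limma adjusted p = 0.00435 and 0.00611 over all probe sets. In KY-1 they gave 0.27 ± 0.09 and 0.23 ± 0.10 log2 (SE). IFITM genes are close relatives, and a probe set may read more than 1 of them. With GFP Ifitm1 and Ifitm2 differed in opposite directions between the lines, Ifitm1 by 1.86 and Ifitm2 by -2.75 log2. How much of the Ifitm2 signal, or of its rise with Myb, comes from Ifitm1 transcript was not tested.

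**Figure D1:**
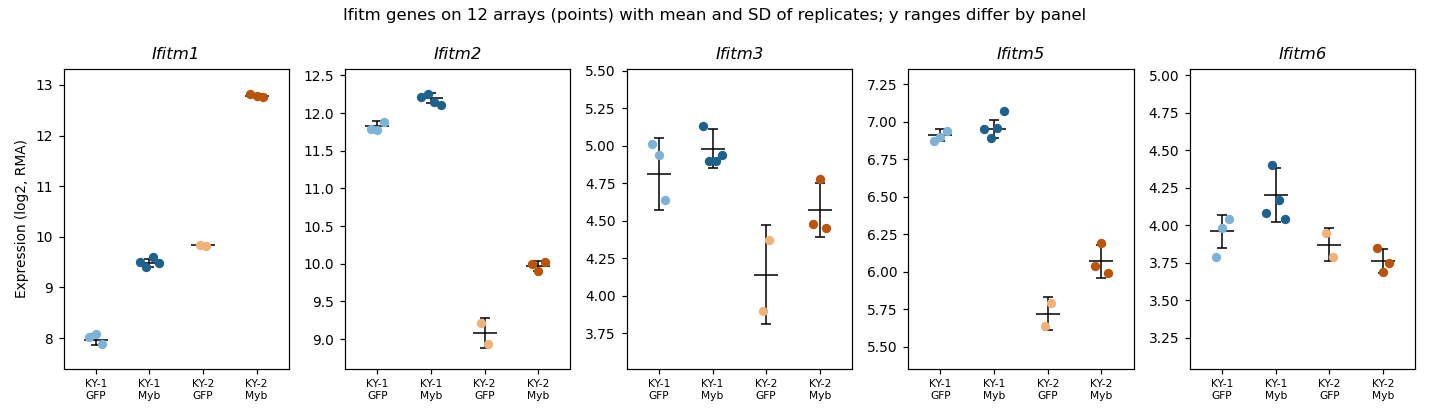
Log2 expression of the 5 Ifitm genes on the 12 arrays (points), by line and vector, with the mean and SD of the replicates (black bars), each gene on its own vertical range. Ifitm1 rises from 7.97 to 9.48 in KY-1 and from 9.83 to 12.79 in KY-2, Ifitm2 lies higher in KY-1 than in KY-2, and Ifitm3 reaches at most 5.13 and Ifitm6 at most 4.40.

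Ifitm3, the best-known restriction factor of influenza virus in the family, lay below the array medians on all 12 arrays. Its log2 level was 5.01, 4.94 and 4.64 in KY-1 with GFP and 5.13, 4.90, 4.90 and 4.94 with Myb, which overlap. In KY-2 it was 3.90 and 4.37 with GFP and 4.48, 4.78 and 4.45 with Myb, where the Myb arrays lay above. The differences were 0.18 ± 0.16 (SE, limma adjusted p = 0.769) in KY-1 and 0.43 ± 0.16 (SE, limma adjusted p = 0.244, interval 0.09 to 0.78) in KY-2. Neither passed. The table has no detection calls, so a change in a gene this dim is uncertain in size.

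Ifitm5, the osteoblast member, was 6.87, 6.90 and 6.94 in KY-1 with GFP and 6.95, 6.89, 6.96 and 7.07 with Myb. In KY-2 it was 5.64 and 5.79 with GFP and 6.04, 6.19 and 5.99 with Myb, without overlap. The difference was 0.04 ± 0.09 (SE, limma adjusted p = 0.927) in KY-1. In KY-2 it was 0.35 ± 0.09 (SE, limma adjusted p = 0.0719, interval 0.16 to 0.55), which did not pass. It passed with all 12 arrays as separate replicates (adjusted p = 0.035), among brighter genes (0.0174) and with array weights (0.0488). None of 5 tested osteoblast markers stood above a log2 level of 8 in any group.

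Ifitm6 was the dimmest member, with all 12 arrays between 3.69 and 4.40. It was 3.79, 3.98 and 4.04 in KY-1 with GFP and 4.08, 4.40, 4.17 and 4.04 with Myb, and 3.95 and 3.79 in KY-2 with GFP and 3.85, 3.69 and 3.75 with Myb. In KY-1 its lowest Myb array lay just above its highest GFP array, both 4.04 after rounding. The differences were 0.24 ± 0.11 (SE, limma adjusted p = 0.482) in KY-1 and -0.10 ± 0.11 (SE, limma adjusted p = 0.797) in KY-2.

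Beside Ifitm1, then, 0 of the other 4 members were called in KY-1, where 1.22% of all genes were called, 0.612% higher and 0.612% lower. In KY-2 1 of the 4 was called, higher, where 2.83% of all genes were, 1.28% higher and 1.55% lower. Averaged over the lines 1 of the 4 was called, higher, against 3.1% of all genes, 1.52% higher and 1.58% lower. An unadjusted limma p under 0.05 was met by Ifitm2 in KY-1 and by Ifitm2, the dim Ifitm3 and Ifitm5 in KY-2. The share of all genes under that unadjusted threshold was not computed, here or for the other counts at it, so these counts have no background beside them. Nor was the share of all genes whose arrays did not overlap between the vectors, and with so few arrays such separation is easily met. The change of Ifitm1 exceeded that of Ifitm2 by 1.15 ± 0.13 log2 (SE, interval 0.83 to 1.46) in KY-1 and by 2.07 ± 0.13 (SE, interval 1.76 to 2.38) in KY-2, with Ifitm1 picked for its rise. Against Ifitm3, Ifitm5 and Ifitm6 the excess was between 1.28 and 1.48 in KY-1 and between 2.54 and 3.07 in KY-2.

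**Figure D2:**
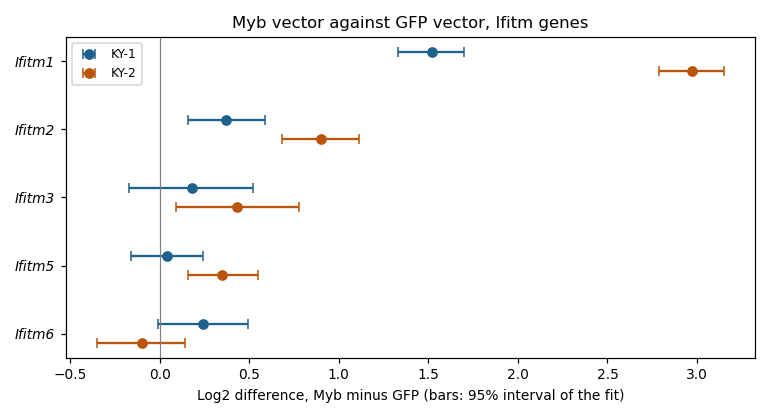
Log2 difference between Myb and GFP vector (horizontal axis) for each Ifitm gene in KY-1 and KY-2, as points with the 95% interval of the fit. Ifitm1 stands at 1.52 and 2.97, Ifitm2 at 0.37 and 0.90, and the other genes lie between -0.10 and 0.43.

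KY-1 arrays were sorted into 2 sets by the correlation of their deviations from the group means. GFP arrays 1 and 2 went with Myb arrays 3 and 4, and GFP array 3 with Myb arrays 1 and 2. Correlations across probe sets were 0.133 to 0.374 within sets and -0.374 to -0.116 between them. Deviations within a group sum to 0 and GFP arrays 1 and 2 are nearly alike, so such sorting fixes these signs. They cannot show that there are 2 sets. Ifitm1 rose from 8.05 to 9.55 log2 in the set of paired arrays and from 7.89 to 9.45 in the other set. Ifitm2 was higher by 0.34 and 0.36. Ifitm3 differed between the sets, with -0.05 and 0.37, while Ifitm5 gave 0.13 and -0.02 and Ifitm6 0.22 and 0.21. The sets were formed from the data and have no label.

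The sequences just upstream of the start sites are shown for Ifitm1 and Ifitm2, the members that rose, and for Ifitm3 as a member of the same cluster that was not called. They come from RefSeq (GRCm38.p6), 5′ to 3′ along the gene, 250 bases before the annotated start. Ifitm1 is read from chr7:140967826-140968075 on the plus strand, Ifitm2 from chr7:140955962-140956211 and Ifitm3 from chr7:141010745-141010994, both on the minus strand. Ifitm5 and Ifitm6 lie on the minus strand too, so Ifitm1 is the only member read from the plus strand. Capitals mark matches to AACNG, the core of the Myb recognition element, and to a pair of GAAA tetramers separated by any 2 bases, a core of the interferon-stimulated response element (ISRE), on either strand, and in Ifitm2 the neighbouring matches join into 1 run.
Ifitm1: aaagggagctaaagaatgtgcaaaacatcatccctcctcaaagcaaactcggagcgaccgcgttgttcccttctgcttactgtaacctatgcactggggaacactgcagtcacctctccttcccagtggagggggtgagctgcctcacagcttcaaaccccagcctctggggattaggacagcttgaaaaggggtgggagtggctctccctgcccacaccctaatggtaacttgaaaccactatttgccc
Ifitm2: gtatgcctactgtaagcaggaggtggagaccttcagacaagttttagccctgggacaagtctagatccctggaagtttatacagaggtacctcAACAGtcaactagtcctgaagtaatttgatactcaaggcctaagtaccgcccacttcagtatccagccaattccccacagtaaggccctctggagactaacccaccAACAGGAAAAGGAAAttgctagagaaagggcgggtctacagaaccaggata
Ifitm3: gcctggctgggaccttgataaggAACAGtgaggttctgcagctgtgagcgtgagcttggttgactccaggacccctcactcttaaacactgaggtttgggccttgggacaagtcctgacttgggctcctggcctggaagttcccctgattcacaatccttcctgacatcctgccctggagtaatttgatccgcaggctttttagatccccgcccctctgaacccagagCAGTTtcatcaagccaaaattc

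In the whole window of 300 bases, which adds 50 bases after the start, Ifitm1 had no match to the Myb core, to the ISRE core or to TTCNNNGAA, a core of the gamma-activated site (GAS) bound by STAT dimers. Ifitm2 had 2 Myb core matches, from -157 to -153 and from -51 to -47 relative to the start, and 1 ISRE match from -46 to -37. Ifitm3 had 2 Myb core matches upstream and 2 after the start, and its 2 ISRE matches (3 to 12 and 20 to 29) and 1 GAS match (14 to 22) also lay after the start. There 1 Myb core match, from 22 to 26, lies inside the second ISRE match, and the other, from 28 to 32, overlaps its end. The GAS match overlaps the start of that ISRE match and 1 base of the Myb core match inside it. Ifitm6 had 4 Myb core matches and 1 GAS match, and Ifitm5 had none of the 3 motifs. Of 32851 windows of this length, 80.3% held a Myb core match, 3.44% an ISRE match and 8.3% a GAS match. A match describes these letters only.

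Genes on each side of the cluster were compared next. In chromosomal order the cluster runs Ifitm5, Ifitm2, Ifitm1, Ifitm3, Ifitm6, with Pgghg, a glycosidase of hydroxylysine-linked sugars, before it and B4galnt4, a glycosyltransferase, after it. The 10 nearest tested protein-coding genes on either side were taken. Of these 20 genes 0 were called by limma in KY-1, in KY-2 or averaged over the lines, which is near the 1.22%, 2.83% and 3.1% of all genes called, and 2, 1 and 2 had an unadjusted p under 0.05. Their log2 differences lay between -0.28 and 0.20 in KY-1 (median 0.02) and between -0.25 and 0.23 in KY-2 (median -0.02), beside medians of -0.001 and 0.011 over all genes. B4galnt4 averaged 0.20 and was not called (limma adjusted p = 0.161). It was the 1 flanking gene called with all 12 arrays as separate replicates (adjusted p = 0.0413) and among brighter genes (0.0473). Under those settings 5.73% of all genes and 11.1% of the brighter genes were called. Pgghg, next to Ifitm5, was at 0.15 in KY-1 and 0.23 in KY-2 and was not called. Within the cluster Ifitm2, which stands next to Ifitm1, was called with Myb in KY-2 and averaged over the lines, and not in KY-1. Ifitm1 itself was picked for its rise.

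**Figure D3:**
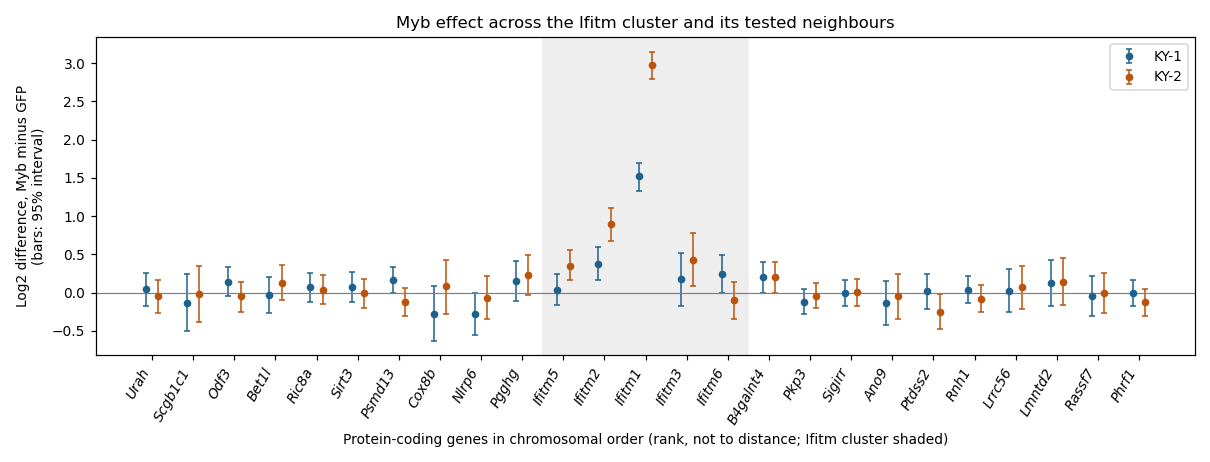
Log2 difference between Myb and GFP vector for the Ifitm genes (shaded) and the 10 tested protein-coding genes on each side, in chromosomal order by rank, for KY-1 and KY-2 with 95% intervals. The 20 flanking genes lie between -0.28 and 0.23, and Ifitm1 stands at 1.52 and 2.97.

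The lines themselves differed in these genes, and Ifitm1 differed in the direction opposite to its neighbours. With GFP, Ifitm1 was higher in KY-2 than in KY-1 by 1.86 ± 0.09 log2 (SE, limma adjusted p = 5.91e-08), or 3.62-fold. Ifitm2 was lower in KY-2 by 6.75-fold, a log2 difference of -2.75 ± 0.11 (SE, limma adjusted p = 9.64e-09). Ifitm5 was lower by 2.29-fold (-1.19 ± 0.10, limma adjusted p = 4.51e-06) and Ifitm3 by 1.59-fold (-0.67 ± 0.17, limma adjusted p = 0.0124). Ifitm6 was at -0.09 ± 0.12 (SE, limma adjusted p = 0.646). So 1 member was higher and 3 were lower in KY-2 with GFP, where 13.6% of all genes were called higher and 15.2% lower.

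With the Myb vector the gap in Ifitm1 widened to 3.31 ± 0.07 log2 (SE), or 9.91-fold, while Ifitm2 stayed lower in KY-2 by 4.68-fold (-2.23 ± 0.09, limma adjusted p = 7.55e-09). Ifitm5 was lower by 1.84-fold (-0.88 ± 0.08, limma adjusted p = 7.83e-06). The dim genes Ifitm3 (-0.41 ± 0.14, limma adjusted p = 0.044) and Ifitm6 (-0.43 ± 0.10, limma adjusted p = 0.00606) were called lower as well, giving 1 higher and 4 lower, against 14.7% and 16.9% of all genes. Ifitm3 lost that call without any 1 of 5 replicates (KY-1 Myb 1, 2, or 3 and 4; KY-2 Myb 1 or 3), with adjusted p between 0.0579 and 0.15, and under 4 other alternatives (0.0509 to 0.0937). Its call with GFP was lost without KY-1 GFP arrays 1 and 2 (adjusted p = 0.11) or KY-2 GFP array 1 (0.126). Ifitm6 lost its call with a block of the 2 sets of KY-1 arrays (0.0691).

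Ordered by level, Ifitm1 went from KY-1 with GFP through KY-1 with Myb and KY-2 with GFP to KY-2 with Myb, and no neighbours in that order overlapped over the arrays. Ifitm2 ran from KY-2 with GFP (9.08) through KY-2 with Myb (9.97) and KY-1 with GFP (11.83) to KY-1 with Myb (12.20), also without overlap. Ifitm5 had the same order, but KY-1 with GFP (6.91) and with Myb (6.95) overlapped. Ifitm3 had that order too, but KY-2 with Myb (up to 4.78) overlapped KY-1 with GFP (from 4.64), which overlapped KY-1 with Myb. Ifitm6 ran from KY-2 with Myb (3.76) through KY-2 with GFP (3.87) and KY-1 with GFP (3.96) to KY-1 with Myb (4.2), and KY-2 with GFP overlapped both groups beside it. In this ordering levels of different genes were not compared, since probe sets differ in brightness. Where a member is called dim or dimmest, that describes its probe set signal only.

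**Figure D4:**
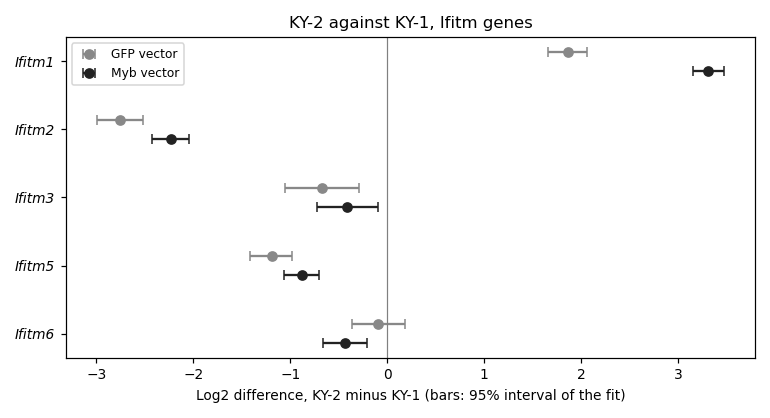
Log2 difference between KY-2 and KY-1 (horizontal axis) for each Ifitm gene with the GFP vector and with the Myb vector, as points with the 95% interval of the fit. Ifitm1 lies at 1.86 and 3.31, to the right of 0, and Ifitm2 at -2.75 and -2.23, to the left.

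Flanking genes were called between the lines about as often as all genes in either direction, but each call was lower in KY-2. With GFP 0 of the 20 were called higher in KY-2 and 5 lower. Of all genes 13.6% were called higher and 15.2% lower, or 28.9% in either direction. The 5 were B4galnt4 (-0.75 ± 0.10), Ric8a (-0.64 ± 0.09), Pgghg (-0.64 ± 0.13), Lmntd2 (-0.52 ± 0.15) and Phrf1 (-0.35 ± 0.09), with limma adjusted p between 0.00017 and 0.0252. Without KY-2 GFP array 1, which leaves 1 replicate of that group, fewer were called, as were fewer of all genes. Lmntd2 then stood at -0.51 and Phrf1 at -0.29. Lmntd2 lost its call in 5 of 21 alternatives and Phrf1 in 3 of 22, up to an adjusted p of 0.195 and 0.0937. With Myb the same 5 genes and Psmd13 (-0.28 ± 0.07, adjusted p = 0.0122, and 0.0552 without KY-2 Myb array 3) were called lower and 0 higher. Of all genes 14.7% were called higher and 16.9% lower, or 31.6% in either direction. Psmd13 encodes a proteasome subunit and Ric8a a chaperone of G protein subunits.

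Other genes that interferons induce were set beside the family. Of 50 tested interferon-stimulated genes, Ifitm genes left out, 2 were called higher and 0 lower with Myb in KY-1, 3 higher and 1 lower in KY-2, and 5 higher and 2 lower averaged over the lines. Over all genes 0.612% were called higher and 0.612% lower in KY-1, 1.28% and 1.55% in KY-2, and 1.52% and 1.58% averaged over the lines. Those called in KY-1 were Cmpk2 and Gbp3. In KY-2 they were Cmpk2, Iigp1 and Bst2, which rose, and Ddx58, which fell. The KY-1 call of Gbp3 (0.51 ± 0.11, limma adjusted p = 0.0496) and the KY-2 call of Bst2 (0.33 ± 0.07, limma adjusted p = 0.0395) were each kept in 8 of 22 alternatives. The KY-2 call of Ddx58 (-0.49 ± 0.08, limma adjusted p = 0.00554) was lost without KY-2 GFP array 1 (0.0622) or array 2 (0.0633). The median log2 differences of the 50 genes were 0.08, 0.09 and 0.05, beside -0.001, 0.011 and 0.005 over all genes. Cmpk2, a mitochondrial nucleotide kinase, rose by 0.68 ± 0.11 log2 in KY-1 (SE, limma adjusted p = 0.0153) and by 1.37 ± 0.11 in KY-2 (SE, limma adjusted p = 5.21e-05), from levels of 4.74 and 5.12 below the array medians. Its KY-1 call was lost without KY-1 GFP array 3 (adjusted p = 0.174), without KY-1 Myb array 1 (0.0638), without the averaged Myb arrays 3 and 4 (0.066), with the KY-1 arrays fitted alone (0.0563) and over every probe set (0.0773). Iigp1, an immunity-related GTPase, rose by 0.73 ± 0.10 in KY-2 (SE, limma adjusted p = 0.00302; 0.052 without KY-2 GFP array 1). Bst2, or tetherin, which holds budding viruses at the cell surface, averaged 0.32 ± 0.05 over the lines (SE, limma adjusted p = 0.0066). Ddx58, the RNA sensor RIG-I, fell by 0.36 ± 0.05 log2 averaged over the lines (SE, limma adjusted p = 0.00341).

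**Figure D5:**
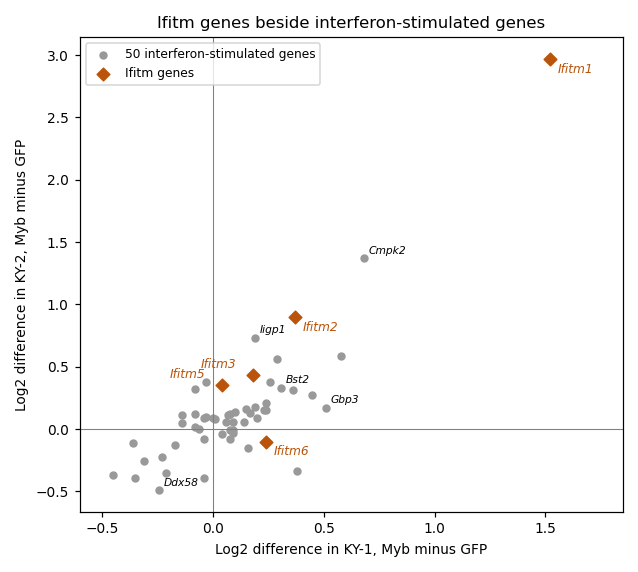
Log2 difference between Myb and GFP vector in KY-1 (horizontal axis) and KY-2 (vertical axis) for 50 interferon-stimulated genes (grey) and the 5 Ifitm genes (diamonds). Ifitm1, at 1.52 and 2.97, lies beyond all 50 genes in both lines, and Cmpk2, at 0.68 and 1.37, comes next.

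Genes that make or receive the interferon signal were examined next. Of 13 tested interferon genes 0 were called higher and 1 lower in KY-1, and 1 higher and 1 lower in KY-2, against 1.22% and 2.83% of all genes in either direction. Ifng, the interferon of NK cells themselves, fell by 0.54 ± 0.09 log2 in KY-1 (SE, limma adjusted p = 0.019) and by 0.87 ± 0.09 in KY-2 (SE, limma adjusted p = 0.00035). Its KY-1 call was lost without any 1 of 4 KY-1 replicates (GFP 1 and 2, GFP 3, Myb 1 or Myb 2; adjusted p between 0.0631 and 0.193), with the KY-1 arrays fitted alone (0.0679) and over every probe set (0.0744). Ifnz was called higher in KY-2 (0.67 ± 0.13, limma adjusted p = 0.0172), a call lost without any 1 of 4 KY-2 replicates (GFP 1 or 2, Myb 2 or 3; adjusted p between 0.056 and 0.131) and over every probe set (0.0754). Of 19 interferon receptor and signalling genes 1 was called higher and 1 lower averaged over the lines, against 3.1% of all genes in either direction. Ifngr1, the ligand-binding chain of the interferon gamma receptor, fell by 0.48 ± 0.06 log2 (SE, limma adjusted p = 0.00133). By line it was called in KY-1 (-0.70 ± 0.09, limma adjusted p = 0.00274) and not in KY-2 (-0.26 ± 0.09, limma adjusted p = 0.206). The difference in effect was not called (limma adjusted p = 0.171). Usp18, which dampens interferon receptor signalling and is also in the list of 50, rose by 0.59 ± 0.10 (SE, limma adjusted p = 0.00836). By line it was 0.58 in KY-1 and 0.59 in KY-2, neither called (limma adjusted p = 0.097 and 0.0548).

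Between the lines with GFP, 6 of the 50 interferon-stimulated genes were higher and 22 lower in KY-2, against 13.6% and 15.2% of all genes, with a median of -0.23 beside -0.04 over all genes. Oasl2 (-2.30 ± 0.10), Iigp1 (-1.85 ± 0.11), Lgals3bp (-1.44 ± 0.11) and Trim30a (-2.14 ± 0.17) had the smallest p-values, with limma adjusted p of at most 3.49e-06. Those 4 genes were lower in KY-2, the direction of Ifitm2 and Ifitm5 and opposite to that of Ifitm1.

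Relatives of the family outside the locus showed no called change. Of 6 tested genes with a CD225 domain, the domain that defines the family, 0 were called by limma with Myb in either line or between the lines. None had an unadjusted p under 0.05. With Myb 1.22% of all genes were called in KY-1 and 2.83% in KY-2, so 0 of 6 is near the background. Between the lines 28.9% were called with GFP and 31.6% with Myb, and 6 genes are few beside such shares. Ifitm10 had group means between 5.18 and 5.33, and Ifitm7 between 5.24 and 5.49. Among 17 genes reported as partners or modifiers of IFITM proteins, 0 were called higher and 1 lower averaged over the lines, against 3.1% of all genes in either direction. It was Fyn, a kinase reported to phosphorylate IFITM3, at -0.38 ± 0.07 log2 (SE, limma adjusted p = 0.0134), a call lost without KY-1 GFP arrays 1 and 2 (0.0683), KY-2 GFP array 1 (0.0688) or KY-2 GFP array 2 (0.0528), or over every probe set (0.0514). Of 13 other endosomal and membrane antiviral genes Bst2 alone was called with Myb against GFP, higher in KY-2 and averaged over the lines. There 2.83% and 3.1% of all genes were called in either direction. Between the lines with GFP 1 of the 13 was higher and 7 were lower in KY-2, against 13.6% and 15.2% of all genes. Of 9 germ cell genes, with which Ifitm1 and Ifitm3 are known from early development, 0 were called with Myb by limma and 1 had an unadjusted p under 0.05 averaged over the lines.

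The genes whose levels most resembled those of each member were sought among 2115 genes with a range of at least 1 log2 unit, by Pearson correlation over the 10 replicates. These replicates fall into 4 groups, so the correlation mostly compares group means and is a description. For Ifitm1 they were Cxcr4 (0.989), a chemokine receptor that retains cells in bone marrow, Bfsp2 (0.985), Nrros (0.981), Smpdl3b (0.981) and Ndrg2 (0.980). Cxcr4 went from 5.86 to 6.42 in KY-1 and from 6.78 to 8.42 in KY-2. The genes most opposite to Ifitm1 were Cd226 (-0.987), the activating receptor DNAM-1, Lilrb4a (-0.981) and Sla (-0.980). Among interferon-stimulated genes those nearest to Ifitm1 were Cmpk2 (0.966), Dhx58 (0.876) and Irgm1 (0.841).

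Ifitm2 had other companions. They were Rnf213 (0.995), Cyp1b1 (0.994), Pecam1 (0.993), Eef2k (0.993) and Zfp217 (0.992), and among interferon-stimulated genes Bst2 (0.986), Iigp1 (0.985) and Trim30a (0.984). Bst2 stood at 10.72 and 11.02 in KY-1 and at 9.86 and 10.19 in KY-2, so both genes were higher in KY-1 and a little higher with Myb. The nearest genes of Ifitm5 were Maged1 (0.993), Zfp800 (0.991), Itga4 (0.991), Iigp1 (0.991) and Mgat5 (0.991). Those of the dim Ifitm3 were Pou5f1 (0.939), Prelid2 (0.921), Rasgrp2 (0.919), Pole2 (0.910) and Slc30a2 (0.909). Ifitm6, with a range of 0.72 over the replicates, was not searched. Within the family, Ifitm2 and Ifitm5 had a correlation of 0.981 over the 10 replicates, and Ifitm1 had -0.564 with Ifitm2 and -0.591 with Ifitm5, genes that differ between the lines in the opposite direction.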

How the data were processed

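Total RNA of 12 samples was hybridised to Affymetrix arrays. The authors deposited log2 expression values for each probe set. The submitters' processing notes name Partek and RMA, a method that normalizes between arrays; further settings were not given in the sources used here. Precision is limited by how many arrays there are. Of 35556 probe sets, 21789 were paired with 1 symbol, 1621 with several (0 of them with a member) and 12146 were not listed. Symbols were checked by Entrez identifier against RefSeq (GRCm38.p6): 0 changed and 91 identifiers were not in its table.

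All 19938 genes were fitted with limma 3.58.1 (R 4.3.3) on 4 group means over 10 replicates, with Benjamini-Hochberg adjustment over all genes at 0.05. Arrays of a group whose log2 differences had a robust SD under 0.06 were averaged. Members, gene lists and the array averaging were chosen with earlier results of these data known. Genes named were the members, flanking genes called in any comparison, and up to 4 genes of a list with the smallest p; genes of similar pattern were the 5 highest correlations, 3 within interferon-stimulated genes, and for Ifitm1 the 3 lowest. B4galnt4 and Pgghg with Myb, Ifitm7 and Ifitm10 are given beyond that rule, after their values were seen. The gene test was checked on simulated data. Alternatives changed the averaging, replicate block, low-level filter, normalization, probe-set rule, prior variance, array weights, arrays fitted and replicates left out. Motifs were searched on both strands.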

Additional observations from a re-analysis of the deposited data

Results flagged for a closer look

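The Myb effect on Ifitm1 differed between the lines by the interaction term of the fit, with a larger rise in KY-2 by 1.45 log2 (limma adjusted p = 9.2e-05). Ifitm1 lay above all GFP arrays of the line on 4 of 4 Myb arrays in KY-1 and 3 of 3 in KY-2. KY-1 Myb arrays 3 and 4 were averaged as 1 replicate in the fit. Since Ifitm1 was picked for its rise, these counts and the p-value of the difference are descriptions. The counts do not bear on the difference between the lines. Over the alternatives the difference lay between 1.37 and 1.53.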

How the results depend on the processing

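Ifitm1, picked for its rise, kept its direction and its side of the threshold in each comparison and under each alternative run. So did Ifitm5 between the lines and Ifitm2 in KY-2, averaged over the lines and between the lines. The number of members called beside Ifitm1 changed with the fit. With all 12 arrays as separate replicates it was 1 in KY-1 (Ifitm2), 2 in KY-2 and 2 averaged over lines (Ifitm2 and Ifitm5). With that setting 2 members (Ifitm1 and Ifitm2) differed in effect between lines. More of all genes were called there too, 4.13%, 3.81%, 5.73% and 2.14%, against 1.22%, 2.83%, 3.1% and 0.843% in the main fit. The filter on genes with a mean above 6, which left out Ifitm3 and Ifitm6, gave the same numbers, 1, 2, 2 and 2. With it 3 members, Ifitm1 among them, differed between lines with Myb in place of 5. Of the 9544 genes kept, 4.79%, 9.17%, 11.1% and 3.89% were called. Between the lines with Myb 63.3% of them were, against 31.6% of all genes in the main fit. A trended prior variance gave 1 in KY-1 and 2 for the difference in effect, where 2.43% and 1.82% of all genes were called. Averaging each gene's probe sets gave 2 for the difference in effect (0.838% of all genes). Array weights gave 2 in KY-2 (3.6% of all genes). The number of flanking genes called averaged over lines was 1 with 12 separate arrays and 1 with the filter. Without 1 replicate, the members called beside Ifitm1 numbered 0 for KY-1, 1 for KY-2 and 1 for the average each time. With Ifitm1 counted, 3 to 4 members differed between the lines with GFP and 4 to 5 with Myb. Flanking genes called between the lines with GFP were fewer without KY-2 GFP array 1, as were all genes called. Leaving out a GFP replicate leaves 1 in that group, which is assumed to vary like the others. Ifitm6 between the lines with GFP, not called, turned to 0.02 after a second quantile normalization.

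A replicate block on all 12 arrays left the counts of members beside Ifitm1 at 0 for KY-1, 1 for KY-2 and 1 averaged over lines. With Ifitm1 counted, 1 member was called for the difference in effect, 4 between the lines with GFP and 5 with Myb. These are the numbers of the fit without it. Ifitm2 in KY-1 had an adjusted p = 0.0526. Replicate numbers do not pair the arrays, since deviations of same-numbered arrays correlated between -0.374 and -0.116 in KY-1 and between -0.011 and 0.055 in KY-2. The block of 2 sets of KY-1 arrays, added after the data were seen, gave 3 members between the lines with Myb, without Ifitm3 and Ifitm6. There 25.7% of all genes were called. Over all alternatives the genes called numbered 72 to 823 in KY-1, where 244 were called, 182 to 888 in KY-2 (565) and 314 to 1143 averaged over lines (619). For the difference in effect they numbered 80 to 427 (168). Of single-gene values under the alternatives, 1254 stayed on their side of the threshold, 86 no longer passed it, 14 newly passed it and 1 reversed. The cause of these changes was not tested, apart from the genes left out by the filter.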
